A study of Mus musculus with 23 samples.

Results

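Nuclear-encoded subunits of the mitochondrial respiratory chain and ATP synthase were described across brain RNA-seq libraries of mice with and without the Grin2b C456Y allele, with and without foot-shock. The set was chosen by name: protein-coding mouse genes called Nduf with a letter a, b, c, s or v and a number, Ndufab1, Sdha to Sdhd, Uqcr genes, Cox genes of families 4 to 8 named with a letter a, b or c, and Atp5 genes. A mean of at least 10 normalized counts over the 23 labelled libraries was also required. The rule gave 80 of the 18578 genes in the table, and all 80 were among the 17118 genes tested. By gene name, they comprised 38 genes of complex I, 4 of complex II, 8 of complex III, 13 of complex IV and 17 of complex V. The pattern leaves out Cox4i1, Cox4i2 and Cyc1, which were followed separately.

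GluN2B, the product of Grin2b, is a subunit of NMDA-type glutamate receptors, and the allele changes a single residue of it. The 4 groups were heterotype mice given foot-shock (HT shock, 6 libraries), heterotype controls (HT control, 6 libraries), wildtype mice given foot-shock (WT shock, 5 libraries) and wildtype controls (WT control, 6 libraries). HT is the labels' heterotype, which the series' text calls heterozygous, and the titles mark all libraries as belonging to a Grin2b KI line. All mice were labelled as male C57BL/6J, and the tissue was labelled only as brain. The labels give an age of postnatal day 17, whereas the series' text speaks of adult animals, so the age is uncertain. The labels state neither the brain region nor the time between shock and tissue collection, nor whether each library came from a separate animal. If they did not, the p-values below measure only the spread between libraries, which may be technical.

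The respiratory chain lies in the inner mitochondrial membrane. Complexes I and II feed electrons from NADH and succinate into ubiquinone, complex III passes them to cytochrome c, and complex IV hands them to oxygen. Proton pumping by complexes I, III and IV drives ATP synthase, complex V. Most subunits are encoded in the nucleus and imported, while a few central ones are encoded by mitochondrial DNA, so each complex other than complex II depends on both genomes. Neurons draw heavily on this pathway to restore ion gradients after synaptic activity.

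Values are the authors' normalized counts, on one scale for all libraries; sequencing depth is unknown. Differences are on the log2(normalized count + 1) scale with standard errors (SE) from one limma model over the 4 groups, and a gene is called at an adjusted p (Benjamini-Hochberg over 17118 genes) under 0.05. HT control replicate 6 stood apart from its group on the first principal component, at 31.3 against -12.7 to 5.17 for the other HT control libraries and 11.4 to 26.0 for the HT shock libraries. Grin2b itself had 9874 to 11520 normalized counts in HT shock and 10730 to 14220 in WT shock libraries (log2 difference -0.26 ± 0.08 SE, limma adjusted p = 0.0507). A single-residue allele cannot be checked from a gene's total count.

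The subunits were abundant. Together they held a median of 0.964% of the summed normalized counts in HT shock, 0.906% in HT control, 0.912% in WT shock and 0.888% in WT control libraries. The coefficient of variation within groups had a median of 5.93% per gene and was under 10% for 75 of the 80. Per kilobase of transcript, the median level was 5436 normalized counts for complex IV and 4844 for complex V. It was 3779 for complex III, 2357 for complex I and 2337 for complex II. Within complexes I, IV and V the levels spread widely, at 52.9 to 9202, 87.2 to 14930 and 249.7 to 17960. They ran from 740.7 to 4290 in complex II and from 2270 to 7106 in complex III.

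The F1 beta subunit Atp5b, which holds the catalytic sites of ATP synthase, was the highest member at 17960 normalized counts per kilobase. Next came Cox8a at 14930 and Cox6a1 at 10740 per kilobase, both the ubiquitous isoforms of small complex IV subunits. The isoforms known from heart and skeletal muscle were far lower: Cox6a2 had 205 and Cox7a1 had 87.2 per kilobase. Cox6b2, the isoform known from testis, had 102 per kilobase beside 6801 for Cox6b1. Ndufa4l2, a homologue of Ndufa4 known as induced by hypoxia, had 52.9 per kilobase beside 9202 for Ndufa4. The c ring of ATP synthase is built from identical proteins made by 3 genes, and these had 6870 (Atp5g3), 1339 (Atp5g1) and 459 (Atp5g2) per kilobase. In that order, the transcript lengths used were 718.5, 2675.5 and 586 bases, and the mean normalized counts 4936, 3582 and 268.9. Atp5g3 and Atp5g1 thus lay closer in counts than per kilobase. At the threshold of the rule, Cox8b (mean 9.66) and Cox7b2 (6.91) lay just outside, and Cox7a1 (34.3), Ndufa4l2 (49.4) and Cox6b2 (56.3) just inside.

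Foot-shocked heterotype mice had slightly higher levels of some of these subunits than foot-shocked wildtype mice. In HT shock against WT shock, 10 of the 80 were called higher and 0 lower, with a fold change of 1.25 at most. Over all genes tested, 3.95% were called higher and 5.33% lower. The log2 difference was positive for 74 of the 80 and ranged from -0.05 to 0.35. Its median was 0.11, beside 0.0037 over all genes tested. At an unadjusted p under 0.05, 36 members were higher and 0 lower, where all genes gave 13.1% higher and 14.8% lower.

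The members' mean deviation in each library, taken as the mean over the 80 genes of the log2 value minus that gene's mean over all libraries, spread over groups as follows. It was 0.072 ± 0.051 in HT shock, 0.0023 ± 0.116 in HT control, -0.038 ± 0.046 in WT shock and -0.043 ± 0.060 in WT control libraries (SD). Of the HT shock libraries, 5 lay between 0.065 and 0.106, above every WT shock library, whose highest was 0.005. HT shock replicate 6, at -0.027, lay within the WT shock range. HT control was the widest group, and its replicate 6 had the highest value of all libraries, 0.189.

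**Figure D1:**
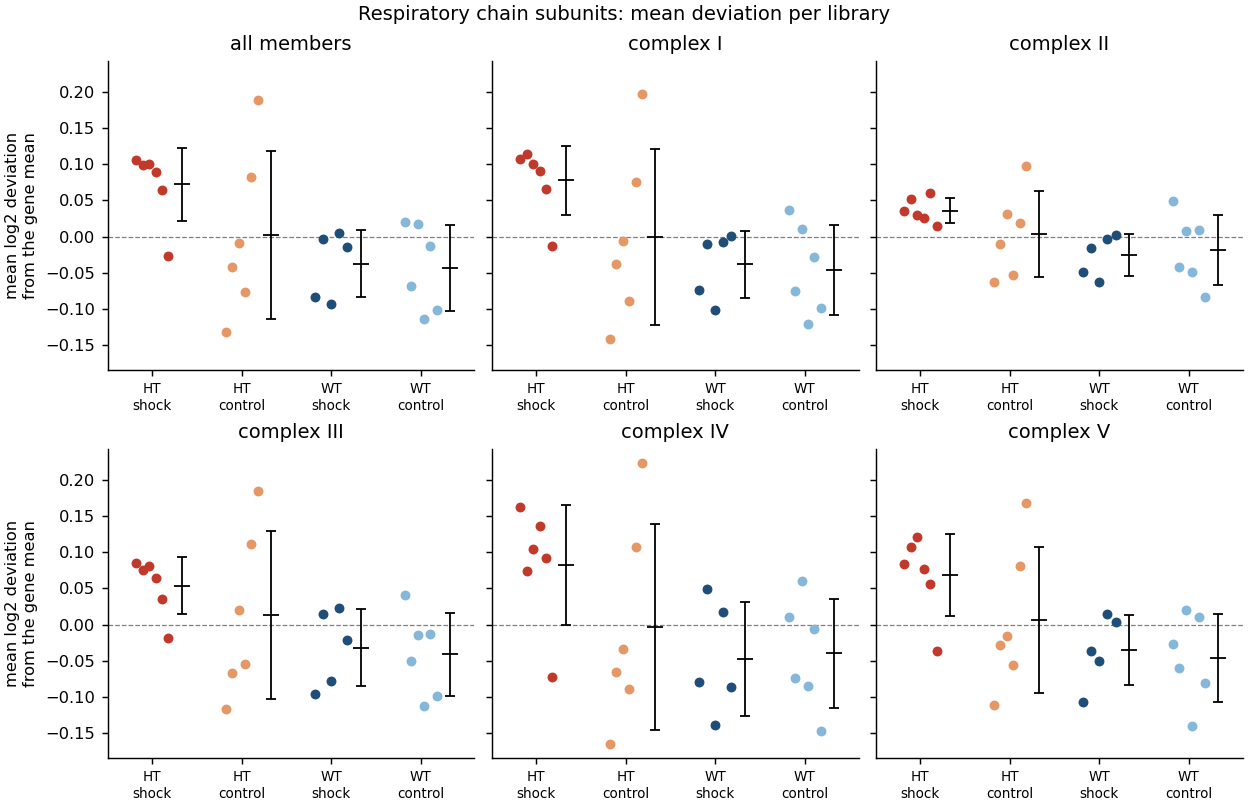
Mean log2 deviation of the subunits from their gene means (y axis) in every library, for all 80 members and for each complex; points are libraries in the 4 groups and bars are the mean and SD. HT shock libraries other than replicate 6 sit above the WT shock libraries for all members, while HT control libraries run from -0.132 to 0.189.

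Complex I is the entry point for electrons from NADH, built from a core that carries the cofactors and many supernumerary subunits that surround it. By gene name it held 8 of the 10 called genes, among 38, with a median log2 difference of 0.11. The 8 include Ndufa4, which is now known as a subunit of complex IV. The core subunits gave 1 call among 7, and the supernumerary and other subunits 7 among 31. Ndufab1, the mitochondrial acyl carrier protein, is a complex I subunit that also carries growing fatty acids. It lies at chr7:122085403-122101886 (GRCm38, minus strand) and had the smallest p of the members. Its normalized counts were 2291 at the lowest, 2450 at the median and 2593 at the highest in HT shock libraries. The WT shock libraries had 1996, 1901, 1823, 1908 and 2092. The groups did not overlap (log2 difference 0.32 ± 0.07 SE, 1.25-fold, limma adjusted p = 0.0078).

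The start regions of 3 called members are shown as examples from complexes I and IV: Ndufab1 for its difference, Ndufs3 as the called core subunit, and Cox5a as the called member with a complex IV name. Each is the 250 bases before the transcript start in RefSeq (GRCm38.p6), 5′ to 3′ on the gene's strand. They span chr7:122101849-122102098 (minus), chr2:90904722-90904971 (minus) and chr9:57520982-57521231 (plus). Capitals mark matches to the SP1 box GGGCGG or the ETS core CCGGAAG on either strand.
Ndufab1: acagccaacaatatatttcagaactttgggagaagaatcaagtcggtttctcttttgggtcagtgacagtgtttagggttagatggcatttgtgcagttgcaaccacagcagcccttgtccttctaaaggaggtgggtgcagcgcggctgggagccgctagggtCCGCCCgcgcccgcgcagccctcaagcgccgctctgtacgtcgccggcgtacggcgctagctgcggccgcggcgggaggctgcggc
Ndufs3: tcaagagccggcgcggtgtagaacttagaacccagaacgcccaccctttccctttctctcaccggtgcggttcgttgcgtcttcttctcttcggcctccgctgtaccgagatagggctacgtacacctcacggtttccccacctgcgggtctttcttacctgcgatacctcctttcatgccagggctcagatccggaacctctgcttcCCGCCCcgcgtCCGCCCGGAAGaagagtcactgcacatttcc
Cox5a: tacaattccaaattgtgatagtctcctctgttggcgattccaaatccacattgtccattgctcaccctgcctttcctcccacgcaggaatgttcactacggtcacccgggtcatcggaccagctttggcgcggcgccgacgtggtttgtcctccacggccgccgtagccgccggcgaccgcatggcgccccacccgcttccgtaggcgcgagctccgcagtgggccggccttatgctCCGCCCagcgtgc
Of the motifs searched, these windows hold the SP1 box 1 time in Ndufab1, 2 times in Ndufs3 and 1 time in Cox5a, and the ETS core 1 time in Ndufs3, where it overlaps an SP1 box.

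The same motifs were counted on both strands in windows of 300 bases, 250 before and 50 after the start, for all 70 RefSeq promoters of the 65 members that had one. The NRF1 core TGCGCA was in 25.7% of members' promoters, against 9.74% of the 21263 promoters of protein-coding genes and 7.76% of all 32851 promoters. The ETS core was in 22.9% of members' promoters, against 11.6% of coding and 8.86% of all promoters. For the YY1 core AAGATGG the shares were 14.3%, 6.24% and 6.34%, and for the ERR core AAGGTCA 11.4%, 4.08% and 4.72%, in the same order. The SP1 box was in 38.6% of members' promoters, below the 46.2% of coding promoters and above the 35.7% of all promoters. Among the 9 called members with a promoter, 7 had the SP1 box, 1 the ETS core and 0 the NRF1, YY1 or ERR letters. A match is a description of the letters, not a bound site.

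Ndufs3 is a core subunit of the arm that reaches into the matrix, close to where ubiquinone is reduced. Its normalized counts were 2793, 2878 and 3124 (lowest, median, highest) in HT shock libraries, against 2651, 2543, 2424, 2546 and 2695 in WT shock libraries. The groups did not overlap, and the log2 difference was 0.18 ± 0.05 SE (adjusted p = 0.0199, limma). Ndufa13, also known as GRIM-19, had 3359, 3649 and 3758 in HT shock libraries, against 3048, 3176, 2938, 3345 and 3139 in WT shock libraries. These groups were also separate (log2 0.20 ± 0.05 SE, limma adjusted p = 0.0226). Called genes were picked by p in this same comparison, so separation adds no support, and its share over all genes was not counted. Uncalled members were separate too, such as Sdhb, with 3326 at the lowest in HT shock and 3248 at the highest in WT shock libraries.

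Ndufa12, a supernumerary subunit of the matrix arm, had 2267, 2420 and 2561 in HT shock libraries, against 1939, 2067, 2115, 2197 and 2130 in WT shock libraries. Its log2 difference was 0.21 ± 0.06 SE (limma adjusted p = 0.0378), with no overlap. Ndufa1 and Ndufb11 are membrane-arm subunits encoded on the X chromosome. Ndufa1 had 1116, 1187 and 1231 in HT shock libraries, against 945.5, 1065, 945.1, 1065 and 916.8 in WT shock libraries. Ndufb11 had 2284, 2327 and 2453 in HT shock libraries, against 2106, 2123, 1996, 2156 and 2048 in WT shock libraries. Both were separate between the groups, by 0.26 ± 0.08 SE (adjusted p = 0.0411) and 0.17 ± 0.05 SE (adjusted p = 0.0484) on the log2 scale in limma.

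Ndufa10, a membrane-arm subunit related to nucleoside kinases, had 4290, 4623 and 4886 in HT shock libraries, against 4073, 4162, 3985, 4163 and 4370 in WT shock libraries. Here the ranges overlapped (log2 0.15 ± 0.04 SE, limma adjusted p = 0.0321). Ndufa4 carries a complex I name but is now known as a subunit of complex IV. It had 4942, 5329 and 5691 in HT shock libraries, against 4443, 4975, 4494, 4850 and 4561 in WT shock libraries, a difference of 0.18 ± 0.06 SE on the log2 scale with overlap (limma adjusted p = 0.0387). Ndufc2, a membrane-arm subunit, did not pass the threshold: its log2 difference was 0.15 ± 0.05 SE (limma adjusted p = 0.0525). Among the other core subunits, Ndufs1, which carries iron-sulfur clusters, differed by 0.03 ± 0.04 SE and Ndufv1, the site of NADH oxidation, by 0.11 ± 0.05 SE on the log2 scale. Neither passed the test (limma adjusted p = 0.715 and 0.168).

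**Figure D2:**
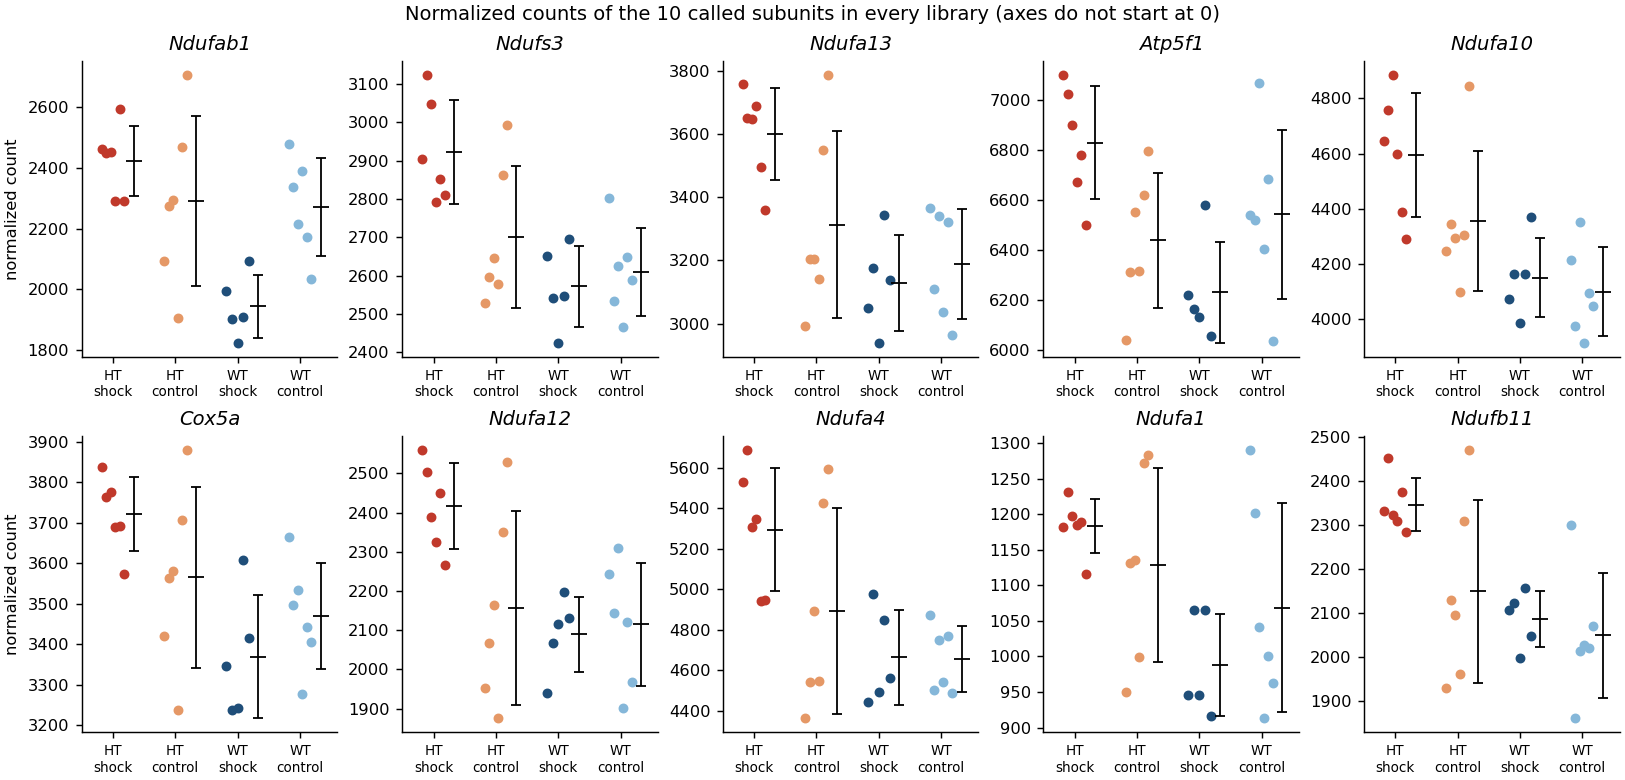
Normalized counts (y axis, not starting at 0) of the 10 called subunits in every library of the 4 groups; points are libraries and bars are the mean and SD. Ndufab1 shows 2291 to 2593 in HT shock libraries, above the 1823 to 2092 of the WT shock libraries, and its HT control libraries spread from 1907 to 2706.

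Complex II, succinate dehydrogenase, joins the citric acid cycle to the chain and has no mitochondrially encoded subunit. Of its 4 genes, 0 were called and 2 had an unadjusted p under 0.05 in limma, both higher, and the median log2 difference was 0.068. Sdhb, the iron-sulfur subunit, had 3326, 3446 and 3488 in HT shock libraries, against 3032, 2990, 3026, 3248 and 3153 in WT shock libraries. It differed by 0.15 ± 0.05 SE on the log2 scale without passing the threshold (limma adjusted p = 0.0553). Sdha, the flavoprotein that oxidizes succinate, gave -0.04 ± 0.03 SE (limma adjusted p = 0.343), the smallest p among the 6 members with a negative difference. It had 11790, 12190 and 12360 in HT shock libraries, against 12330, 12660, 12230, 12870 and 12420 in WT shock libraries, with overlap.

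Complex III, the cytochrome bc1 complex, had 0 calls among 8 genes, with 1 higher at an unadjusted p under 0.05 in limma, and a median log2 difference of 0.073. All 8 estimates were positive, from 0.03 for the core protein Uqcrc2 to 0.21 ± 0.08 SE for the small subunit Uqcrq (limma adjusted p = 0.077). The Rieske iron-sulfur protein Uqcrfs1 gave 0.06 ± 0.04 SE (limma adjusted p = 0.344). It averaged 3157 ± 120.5 normalized counts in HT shock and 3029 ± 51.1 in WT shock libraries (SD, n = 6 and 5).

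Complex IV, cytochrome c oxidase, had 1 call among its 13 genes by name, with Ndufa4 counted under complex I. The median log2 difference was 0.14, and all 13 estimates were positive. Cox5a, a small subunit on the matrix side, was the called one. It had 3574, 3728 and 3839 in HT shock libraries, against 3345, 3238, 3241, 3608 and 3414 in WT shock libraries, with overlap by 1 WT shock library (log2 0.14 ± 0.04 SE, limma adjusted p = 0.0322). The muscle isoform Cox6a2 had the highest estimate of the 80 members but a large error, 0.35 ± 0.13 SE (limma adjusted p = 0.075). It had 121.8, 160.1 and 181.5 in HT shock libraries, against 129.1, 119.5, 129.5, 139.3 and 98.1 in WT shock libraries. The abundant isoforms Cox6a1 and Cox8a gave 0.04 ± 0.06 SE and 0.09 ± 0.05 SE on the log2 scale, neither called (limma adjusted p = 0.681 and 0.242).

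Complex V, ATP synthase, had 1 call among 17 genes and a median log2 difference of 0.11. Its parts gave like medians: 0.14 for the 4 stator (peripheral stalk) genes, 0.090 for the 5 genes of the F1 head, 0.13 for the 3 c ring genes and 0.11 for the 4 accessory genes of the membrane part. All 4 stator genes had an unadjusted p under 0.05, and 1, Atp5f1, was called. Atp5f1 encodes the b subunit that holds the F1 head against rotation. It had 6501, 6841 and 7103 in HT shock libraries, against 6221, 6165, 6135, 6580 and 6058 in WT shock libraries, with overlap by 1 WT shock library (log2 0.13 ± 0.04 SE, limma adjusted p = 0.0319).

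The catalytic subunit Atp5b gave -0.05 ± 0.04 SE on the log2 scale (limma adjusted p = 0.414). It had 33500, 34350 and 34930 in HT shock libraries, against 33550, 38760, 35570, 36620 and 33560 in WT shock libraries, where the wildtype libraries were the more spread. The other large subunit of the F1 head, Atp5a1, gave 0.03 ± 0.03 SE (limma adjusted p = 0.477). Atp5s, a coupling factor B family protein, gave -0.02 ± 0.08 SE (limma adjusted p = 0.928). Atp5o, a stator subunit, overlaps a second annotated Atp5o gene, and how reads were divided between them was not stated in the labels.

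**Figure D3:**
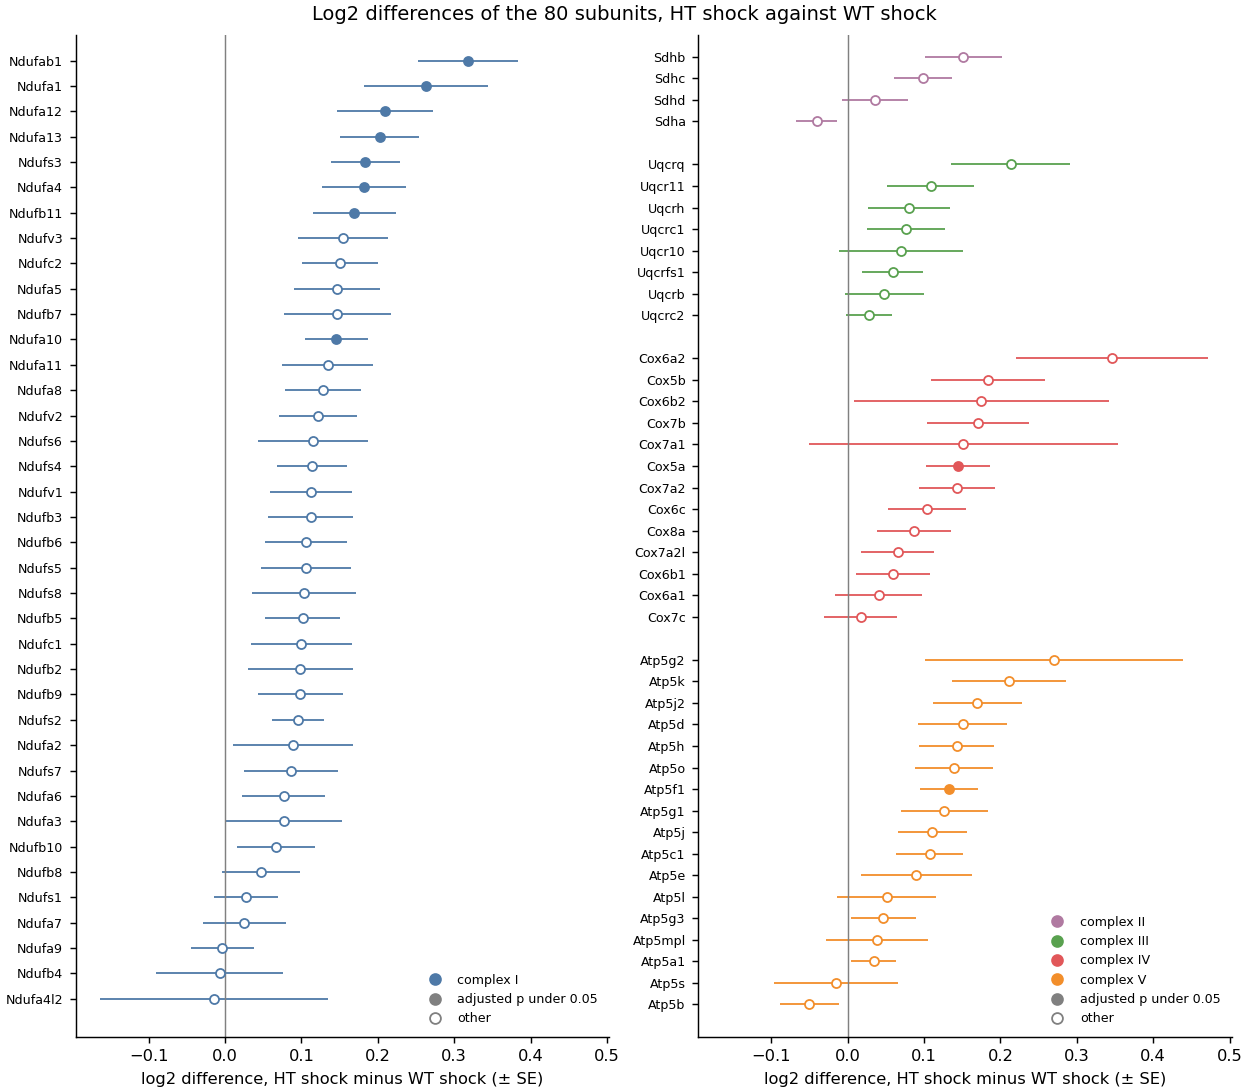
Log2 difference of each of the 80 subunits, HT shock minus WT shock (x axis, bars are SE), by complex; filled points have an adjusted p under 0.05. Differences run from -0.05 (Atp5b) to 0.35 (Cox6a2). By gene name, the 10 filled points are 8 in complex I (Ndufa4 among them), 1 in complex IV and 1 in complex V.

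The count of calls depended on single libraries and on how transcript length was handled. Leaving out 1 library at a time gave 1 to 25 called members, all higher. The count was 25 without HT control replicate 6 and 18 without HT shock replicate 6. It was 1 without HT shock replicate 2 or WT shock replicate 3, 2 without HT shock replicate 1, 3 without HT shock replicate 3 or WT shock replicate 1, and 4 without HT shock replicate 4, WT shock replicate 2 or WT shock replicate 5. The count over all genes moved too: beside 676 genes called higher with every library, leaving out HT control replicate 6 gave 1215 and leaving out HT shock replicate 6 gave 1004. Leaving out replicate 1 or replicate 2 of HT shock gave 205 and 228. Over the other libraries named it was 262 to 371. The members' median log2 difference was between 0.091 and 0.12 over these fits. Ndufab1 was called in all 34 alternatives, with an adjusted p of 3.6e-04 to 0.0236 in limma. Ndufs3 was called in 30, Ndufa13 in 28 and Ndufb11 in 12 of the 34.

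Members have short transcripts, with a median length of 850 bases beside 2768 over all genes tested, and 50 of the 80 lie under 1000 bases. In HT shock against WT shock, the 1526 tested genes under 1000 bases had a median log2 difference of 0.091, close to the 0.11 of the 50 short members. The 15580 longer genes had a median of -0.0040, against 0.10 for the 30 longer members. Of the longer members 6 of 30 were called higher, beside 3.85% of all longer genes. Of the short ones 4 of 50 were, beside 4.98% of all short genes. Members of 1000 bases or more were not matched in length to the other longer genes, here or in the comparisons below. The 6 called among them had 1046 (Ndufs3) to 2447.5 bases (Ndufab1), under the median of all genes tested. Removing each library's smooth trend on transcript length and GC content lowered the members' median to 0.040, beside 0.013 over all genes under the same correction, and left 4 called: Ndufab1, Ndufs3, Ndufa10 and Atp5f1. The same correction gave 510 genes higher and 436 lower over all genes tested, beside 676 and 913 without it.

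In HT shock against HT control, the effect of foot-shock in heterotype mice, 0 of the 80 members were called, as were 0.0% of all genes tested. At an unadjusted p under 0.05, 17 members were higher and 0 lower, where all genes gave 7.0% higher and 6.74% lower. The median log2 difference was 0.076, beside 0.0030 over all genes, and 72 of the 80 were positive. This comparison shares the HT shock libraries with the one above, so the signs are not independent. The smallest p-values belonged to Ndufa5, a supernumerary matrix-arm subunit (0.16 ± 0.05 SE), the stator subunit Atp5j (0.12 ± 0.04 SE) and Ndufa12 (0.17 ± 0.06 SE on the log2 scale). None passed the threshold, with limma adjusted p between 0.272 and 0.277.

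Ndufa5 had 1654, 1786 and 1931 normalized counts in HT shock libraries, against 1483, 1547 and 1825 in HT control libraries (lowest, median, highest), with overlap. The negative estimates of smallest p were those of Sdha (-0.05), Uqcrb (-0.02, a small complex III subunit) and Uqcrc2 (-0.01). HT control replicate 6 decided this comparison: without it, 17 members were called higher and 0 lower, and the median was 0.12. Over all genes, leaving it out gave 768 called higher and 1297 lower, where the full fit gave 0. With the length and GC correction the median of the members was 0.010, beside 0.0069 over all genes.

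In HT control against WT control, the effect of the allele without shock, 0 of the 80 were called, as were 0.0% of all genes. At an unadjusted p under 0.05, 3 members were higher and 0 lower, beside 4.96% higher and 6.11% lower over all genes. The median log2 difference was 0.049, beside -0.0007 over all genes, and 69 of the 80 were positive. Under 1000 bases the medians were 0.058 for members and 0.038 for all genes, and for longer transcripts 0.028 and -0.0045. Without HT control replicate 6 the median of the 80 members was 0.012. The 3 members were Ndufc1, a small membrane-arm subunit (0.16 ± 0.06 SE), Ndufa10 (0.09 ± 0.04 SE) and the iron-sulfur core subunit Ndufs7 (0.12 ± 0.06 SE), with limma adjusted p of 0.400 to 0.449. The negative estimates of smallest p were those of Ndufc2 (-0.06), Ndufv2 (-0.05) and Atp5s (-0.06).

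In WT shock against WT control, the effect of foot-shock in wildtype mice, 0 of the 80 were called, as were 0.0% of all genes. At an unadjusted p under 0.05, 1 member was higher and 2 lower, beside 2.04% higher and 1.68% lower over all genes. The median log2 difference was 0.0033, with 44 positive and 36 negative. The 2 lower members were Ndufab1 (-0.22 ± 0.07 SE) and Ndufc2 (-0.12 ± 0.05 SE), and the higher one was Atp5b (0.10 ± 0.04 SE). Each had a limma adjusted p of 0.998. Ndufab1 had the 5 values given above in WT shock libraries, against 2034 to 2479 in WT control libraries, so the ranges met only between 2034 and 2092. In HT control libraries Ndufab1 spanned 1907 to 2706, and in HT shock libraries 2291 to 2593.

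The test of whether the effect of foot-shock differed between genotypes, the interaction, called 0 of the 80 members and 0.0% of all genes. At an unadjusted p under 0.05, 9 members were positive and 0 negative, beside 3.51% positive and 2.92% negative over all genes. The median was 0.064, beside -0.0007 over all genes. Under 1000 bases the medians were 0.056 for members and 0.048 for all genes, and for longer transcripts 0.071 and -0.0044. Ndufab1 (0.31 ± 0.09 SE), Ndufc2 (0.21 ± 0.07 SE) and Atp5f1 (0.15 ± 0.05 SE) had the smallest p, with limma adjusted p of 0.552 to 0.689. The negative estimates of smallest p were those of Atp5b (-0.11), Ndufa9 (-0.07) and Sdha (-0.04). A difference in the response to shock between genotypes was therefore not shown for any member.

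**Figure D4:**
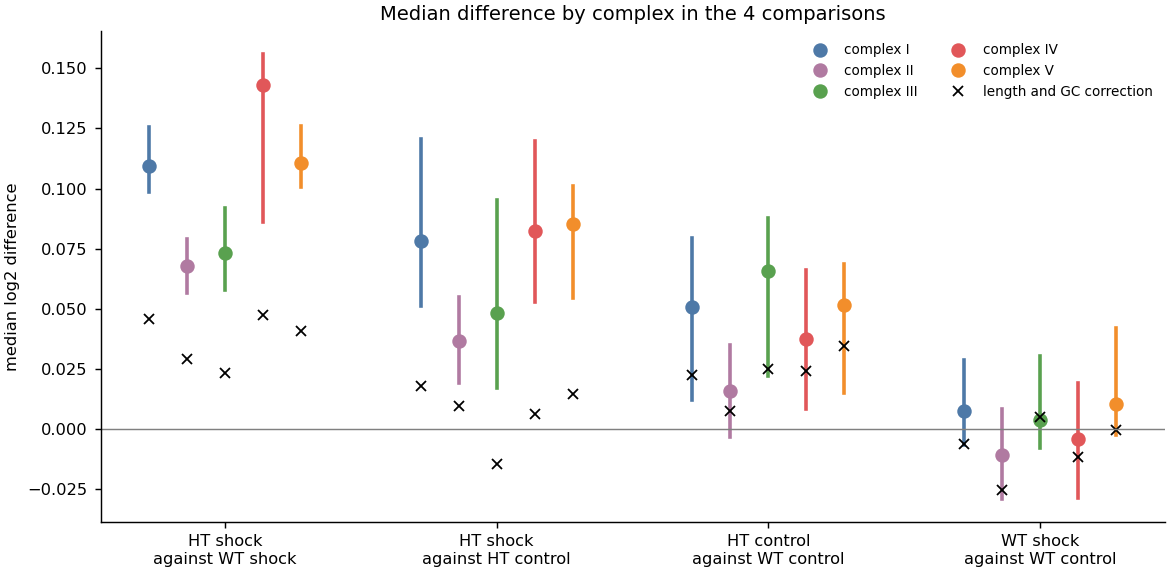
Median log2 difference of each complex (y axis) in the 4 comparisons; points are the fit with all libraries, bars the range when 1 library is left out at a time, and crosses the fit with length and GC correction. Complex IV (0.14), V (0.11) and I (0.11) are highest in HT shock against WT shock, the crosses there lie between 0.023 and 0.047, and WT shock against WT control lies near 0.

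Of the respiratory chain subunits encoded by mitochondrial DNA, several were lower. In HT shock against WT shock, 6 of these 13 genes fell and 0 rose, beside 5.33% lower and 3.95% higher over all genes. Their median log2 difference was -0.15. Of the 13, 3 had a positive estimate, the highest 0.43, and 1 of these an unadjusted p under 0.05. In HT control against WT control 0 were called, but all 13 estimates were negative, 8 with an unadjusted p under 0.05, and the median was -0.22. The median was -0.04 in HT shock against HT control and -0.05 in WT shock against WT control, with 0 called in either; 0 and 3 genes were lower at an unadjusted p under 0.05, and 0 higher. The largest of the 6 was mt-Nd5, a proton-pumping subunit of complex I (-0.37 ± 0.08 SE, limma adjusted p = 0.0134). The catalytic subunit of complex IV, mt-Co1, had the smallest p (-0.22 ± 0.05 SE, limma adjusted p = 0.0129). Both stayed called in all 34 alternatives. Together the 13 genes held 4.68 to 5.19% of the summed normalized counts in HT shock libraries, against 5.26 to 5.90% in WT shock libraries, with no overlap. Their RNA is measured here through a library kit that selects polyadenylated RNA, and was 4.43 to 5.51% in HT control and 5.39 to 6.17% in WT control libraries.

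**Figure D5:**
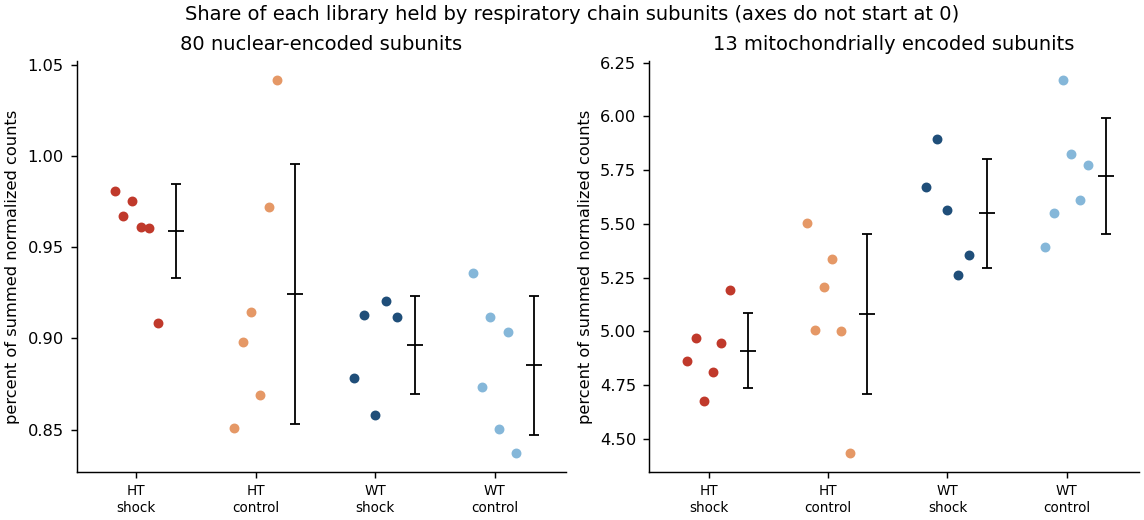
Percent of each library's summed normalized counts (y axes, not starting at 0) held by the 80 nuclear-encoded and the 13 mitochondrially encoded subunits; points are libraries in the 4 groups and bars are the mean and SD. Nuclear-encoded subunits have a median of 0.964% in HT shock and 0.912% in WT shock libraries, and mitochondrially encoded ones 4.90% and 5.57%.

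Genes that build or feed the complexes were compared in the same fit, in HT shock against WT shock. Over all genes tested, 3.95% were called higher and 5.33% lower there, so few calls would fall in lists this small. At an unadjusted p under 0.05 in limma, the shares were 13.1% higher and 14.8% lower. Assembly factors gave no call upward: 0 of 16 for complex I (median log2 difference 0.091), 0 of 10 for complexes II and III (0.078), 0 of 19 for complex IV (0.089) and 0 of 4 for complex V (0.044). In that order, 4, 3, 4 and 0 of them were higher at an unadjusted p under 0.05 in limma. Those of smallest p were Tmem126a (0.16 ± 0.07 SE) and Ndufaf7 (0.14 ± 0.06 SE) for complex I, and Uqcc3 (0.22 ± 0.08 SE) and Sdhaf3 (-0.20 ± 0.07 SE) for complexes III and II. For complex IV they were Cox19, a copper-handling protein (0.20 ± 0.07 SE), which was not called, and Coa5, which fell (-0.19 ± 0.06 SE, limma adjusted p = 0.0477). Coa5 was called in 13 of the 34 alternatives.

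Of 7 subunits and carriers outside the name rule, 0 were called and 1 had an unadjusted p under 0.05 (median 0.049), with cytochrome c1, Cyc1, at 0.14 ± 0.06 SE and Cox4i2 at 0.36 ± 0.18 SE on the log2 scale. The major isoform Cox4i1 gave 0.05 ± 0.05 SE (limma adjusted p = 0.591). The citric acid cycle gave 0 calls among 13 genes, 1 higher and 1 lower at an unadjusted p under 0.05, and a median of 0.016, with Mdh2, malate dehydrogenase, at 0.12 ± 0.05 SE and Suclg2, a succinyl-CoA ligase subunit, at -0.12 ± 0.05 SE. Of 13 regulators of mitochondrial biogenesis, 2 fell and 0 rose, beside 5.33% lower and 3.95% higher over all genes. They were Esrrg, a nuclear receptor of the ERR family (-0.26 ± 0.08 SE, limma adjusted p = 0.0484), and Gabpa, the ETS-family factor also called NRF2 alpha (-0.26 ± 0.08 SE, limma adjusted p = 0.0493). Esrrg was called in 14 and Gabpa in 10 of the 34 alternatives.

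Glycolysis, the cytosolic supply of pyruvate, gave 6 higher and 0 lower of 16 genes, beside 3.95% and 5.33% over all genes. Its median log2 difference was 0.088. Ldha, lactate dehydrogenase A, rose by 0.24 ± 0.05 SE (limma adjusted p = 0.0124) and Gpi1, glucose-6-phosphate isomerase, by 0.17 ± 0.04 SE (limma adjusted p = 0.0159). Both were called in all 34 alternatives. In HT control against WT control 0 of the 16 were called, but 7 were higher and 0 lower at an unadjusted p under 0.05 in limma. The median there was 0.069, and all genes gave 4.96% higher and 6.11% lower. The median was 0.053 in HT shock against HT control and 0.026 in WT shock against WT control, with 0 called in either.

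Markers of cell types moved in the same comparison, and their part in the members' differences was not tested. Markers of striatal projection neurons fell for 6 of 7 (median log2 difference -0.53). Their summed counts were 14040 to 22010 in HT shock and 23440 to 24450 in WT shock libraries. They were not called in the other comparisons, but 7 of 7 were lower at an unadjusted p under 0.05 in HT control against WT control (median -0.27) and 6 of 7 in HT shock against HT control (median -0.33). In WT shock against WT control 0 of 7 were (median -0.10). Oligodendrocyte markers fell for 4 of 5 (median -0.28), with sums of 168700 to 212200 in HT shock and 205000 to 258000 in WT shock libraries. Of 5 general neuronal markers 1 rose, Stmn2 (0.13 ± 0.04 SE, limma adjusted p = 0.036), with a median of 0.068 and sums of 152800 to 168900 in HT shock and 145600 to 159300 in WT shock libraries. Interneuron markers gave 1 rise, Sst, and 1 fall, Gad2, among 5, with a median of 0.14. At an unadjusted p under 0.05 in limma, 3 of them were higher and 1 lower. In these bulk samples fewer cells of a type and less RNA per cell cannot be told apart.

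Astrocyte markers were called for 0 of 5, and so were those of microglia (0 of 5), endothelium (0 of 4), mural cells (0 of 4), choroid plexus (0 of 4) and blood (0 of 4). Of these, 3 astrocyte markers and 1 endothelial marker were lower at an unadjusted p under 0.05 in limma, and 0 of the others passed it. In HT control against WT control 0 were called, but 3 of 4 choroid plexus markers were higher at that unadjusted p (median 0.51). So were 2 astrocyte, 1 endothelial and 1 mural marker, and 0 of the microglial or blood ones. Medians there were 0.30 for microglia, 0.18 for mural cells and -0.021 for astrocytes. Of 3 skeletal muscle markers tested in HT shock against WT shock, 1 rose, Acta1 (0.51 ± 0.16 SE, limma adjusted p = 0.040). Myh4 gave 1.47 ± 0.48 SE without passing the threshold (limma adjusted p = 0.0522). The 4 muscle markers in the table summed to 146.8 to 450.9 normalized counts in HT shock and 126.7 to 176.6 in WT shock libraries. With every library, neither of the members known as muscle isoforms, Cox6a2 and Cox7a1, was called. Among the alternatives, Cox6a2 was called higher with library weights (limma adjusted p = 0.0169) and without HT control replicate 6 (limma adjusted p = 0.0435), for example. With every library, it also passed the looser adjusted p of 0.1.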

How the data were processed

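Libraries were made with a stranded mRNA kit, per the labels' protocols. The authors deposited a signal table of normalized counts per gene with decimals, on one scale for 23 libraries matched to labels; 1 further column matched no sample and was not used. Salmon 1.1.0, R 3.6.2, DESeq2 1.26.0 and GRCm38 are listed without roles, per the submitters' processing notes; how reads shared with pseudogene copies were assigned was not stated. These are not whole counts, so no count model was used and depth is unknown; precision rests on the spread between libraries.

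Of 18578 genes, 18563 were matched by identifier to GENCODE M21. The 17118 genes whose mean reached 10 were fitted as log2(value + 1) with limma 3.58.1 (R 4.3.3), a trended and robust variance, 1 mean per group for all 4 groups, and Benjamini-Hochberg adjustment over all genes at 0.05. The script was tested on simulated data. Transcript length is the median over principal transcripts. Named genes are called members, filled to 3 per direction by smallest p, fixed core subunits and isoforms, and the 2 genes of smallest p in each related list. Members, lists and tests were chosen with earlier results of these data known. Alternatives covered centring, low-value filters, pseudocounts, groups fitted, replicate blocks, length and GC correction, library weights and leaving out each library. Promoters are RefSeq's.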

Additional observations from a re-analysis of the deposited data

Results flagged for a closer look

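Single libraries far from the rest of their group were looked for in 50 measures (200 groups); 7 groups were flagged, where chance alone flags about 1 in 20. HT shock replicate 6 was flagged 3 times. Its mean deviation over all members was -0.0268, while the other HT shock libraries lay between 0.0646 and 0.106. It had 2130 normalized counts of Ndufs7 (2318 to 2410 in the others) and 7102 of Uqcrc1 (7654 to 7912 in the others). HT control replicate 6 had 4844 normalized counts of Ndufa10, with 4097 to 4345 in the other HT control libraries. HT control replicate 3 had 4.24 normalized counts of Cox8b, with 11.6 to 14.6 in the others. WT shock replicate 1 had 4573 of Cox6c, with 4800 to 4890 in the others. WT control replicate 2 had 466.4 of Atp5s, with 374.7 to 402.0 in the others.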

How the results depend on the processing

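In HT shock against WT shock, the count of called members was 10, and 9 or 10 with median centring, no low-value filter, a stricter filter or other pseudocounts. It was 30 with only the compared groups fitted, 34 with library weights, 26 at an adjusted p of 0.1 and 4 with the length and GC correction; over all genes, 1254, 1710, 1387 and 510 were called higher there, beside 676. Leaving out 1 library gave 1 to 25. The labels do not say whether replicate numbers pair the libraries. Over 33 pairs of equal number, the median correlation of deviations was 0.016 for title numbers and 0.017 for bracketed numbers. For other pairs it was 0.004 and 0.002. Single pairs of equal number ran from -0.154 to 0.194 and from -0.114 to 0.194, so these medians cannot exclude pairing. With a replicate block the count was 1 (title numbers, also with the length and GC correction, 1) or 6 (bracketed numbers), with 212, 296 and 407 of all genes called higher. In HT shock against HT control, library weights gave 27 calls in place of 0 (over all genes 1211 higher and 1581 lower, in place of 0), and leaving out 1 library gave 0 to 17. The other comparisons and the interaction had 0 calls of members in every alternative run. The cause of these moves was not tested. Of the single genes named, 163 values lost and 21 gained their call under an alternative, and 11 changed sign, reaching 0.0545 at most. These were Atp5s in HT shock against WT shock (0.0043 with the title block, 0.0545 with the block and the length and GC correction, 0.0389 with the correction alone, 0.013 with library weights, -0.0437 to 0.0289 without 1 library), Uqcrb in HT shock against HT control (0.0022 with library weights, -0.061 to 0.0017 without 1 library) and Uqcrc2 there (0.0008 with the correction, with or without the block, -0.0252 to 0.0015 without 1 library). Unknown depth limits what can be said of members near the threshold of the rule.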
